A study of Mus musculus with 8 samples.

Results

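Retinoid metabolism was examined in adipose-derived stem cells (ADSCs) of BALB/c mice through 9 genes: Aldh1a1, Aldh1a2, Aldh1a3, Rdh10, Rbp4, Stra6, Crabp1, Crabp2 and Cyp26b1. The genes were chosen by symbol, for what their proteins do, and all 9 were found among the 24346 genes listed for each library. All 9 were above 0 in at least 1 library and were tested. The cells came from the gonadal fat of wild-type (WT) male mice aged 12 weeks, digested with collagenase. They are primary cultures, and the labels name no transgene or drug. The 2D group held 4 conventional cultures (mice 2, 3, 4 and 5), and the 3D group held 4 organotypic cultures grown in Matrigel, a basement membrane gel (mice 1, 4, 5 and 7). Mice 4 and 5 gave a culture of each kind. The passage and the medium of the sequenced cultures are not given in the sources used here, so growth in a gel, medium and passage cannot be told apart as sources of a difference.

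Retinoids are vitamin A and its derivatives. Retinol travels in blood on RBP4 and can enter cells through the receptor STRA6. RDH10 oxidizes retinol to retinaldehyde, and the ALDH1A enzymes oxidize retinaldehyde to retinoic acid. Inside the cell CRABP1 and CRABP2 bind retinoic acid, which activates RAR and RXR receptors in the nucleus, and enzymes of the CYP26 family break it down. Retinoic acid guides the development of many epithelia and of the lining of body cavities, and it restrains the formation of fat cells.

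Of the 9 genes, Rdh10 was higher in 3D than in 2D, whereas Aldh1a2, Crabp1 and Cyp26b1 were lower. Crabp1 overlapped between the culture types, and its call held in 1 of the 8 fits that left out a library. Rdh10 was 5.00-fold higher by the ratio of mean FPKM (fragments per kilobase of transcript, scaled to library depth), and Aldh1a2 was 18.9-fold lower. Aldh1a1 was the most abundant retinaldehyde dehydrogenase transcript in every 3D culture but not in every 2D culture, and its 2D values spread so widely that the culture types were not separated. Aldh1a3 and Crabp2 had lower means in 3D but also overlapped between the culture types. Rbp4 was near the limit of detection in most libraries. Stra6 was low, at 0.358 FPKM or less in all but the 2D library of mouse 4. All values below are quantile-normalized FPKM unless stated, which are per length and may be compared between genes. Changes are differences of log2(FPKM + 1), 3D minus 2D, fitted with limma over 18862 genes, with p-values adjusted over all of them. This scale understates changes of low genes.

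Over all genes tested, 21.2% passed the adjusted threshold of 0.05 as higher in 3D and 20.3% as lower, 41.5% in all. Among the 9 retinoid genes, 1 was higher and 3 were lower, and these shares are to be read against that background. The median log2 fold change was -1.39 for the 9 genes and 0.0012 for all genes tested. In 42.5% of all genes the 4 libraries of a culture type lay above the 4 of the other (21.6% with 3D above and 20.9% with 3D below), and the same held for 3 of the 9 (Rdh10, Aldh1a2 and Cyp26b1). In bulk RNA, fewer cells that express a gene and less RNA per cell cannot be told apart. With the mouse as a fixed block, limma's adjusted p was 0.117 or higher for each of the 9 genes. That fit rests on mice 4 and 5 and leaves 1 residual degree of freedom. It called 0 of all 18862 genes as higher and 0 as lower in 3D. With the mouse as a random block, 3948 genes were higher and 3779 lower. The fitted correlation within mice was -0.04, so that fit differs little from the one without a block. Its adjusted p from limma was 3.6e-04 for Rdh10, 3.9e-04 for Aldh1a2, 0.0206 for Cyp26b1 and 0.0421 for Crabp1. With only the 4 libraries of mice 4 and 5 and a fixed block, Rdh10 (limma's adjusted p = 0.0388) and Aldh1a2 (0.0469) passed. Cyp26b1 (limma's adjusted p = 0.0507) and Crabp1 (0.0569) did not. Over all 18081 genes tested in this smaller fit, 893 passed as higher in 3D and 786 as lower.

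**Figure D1:**
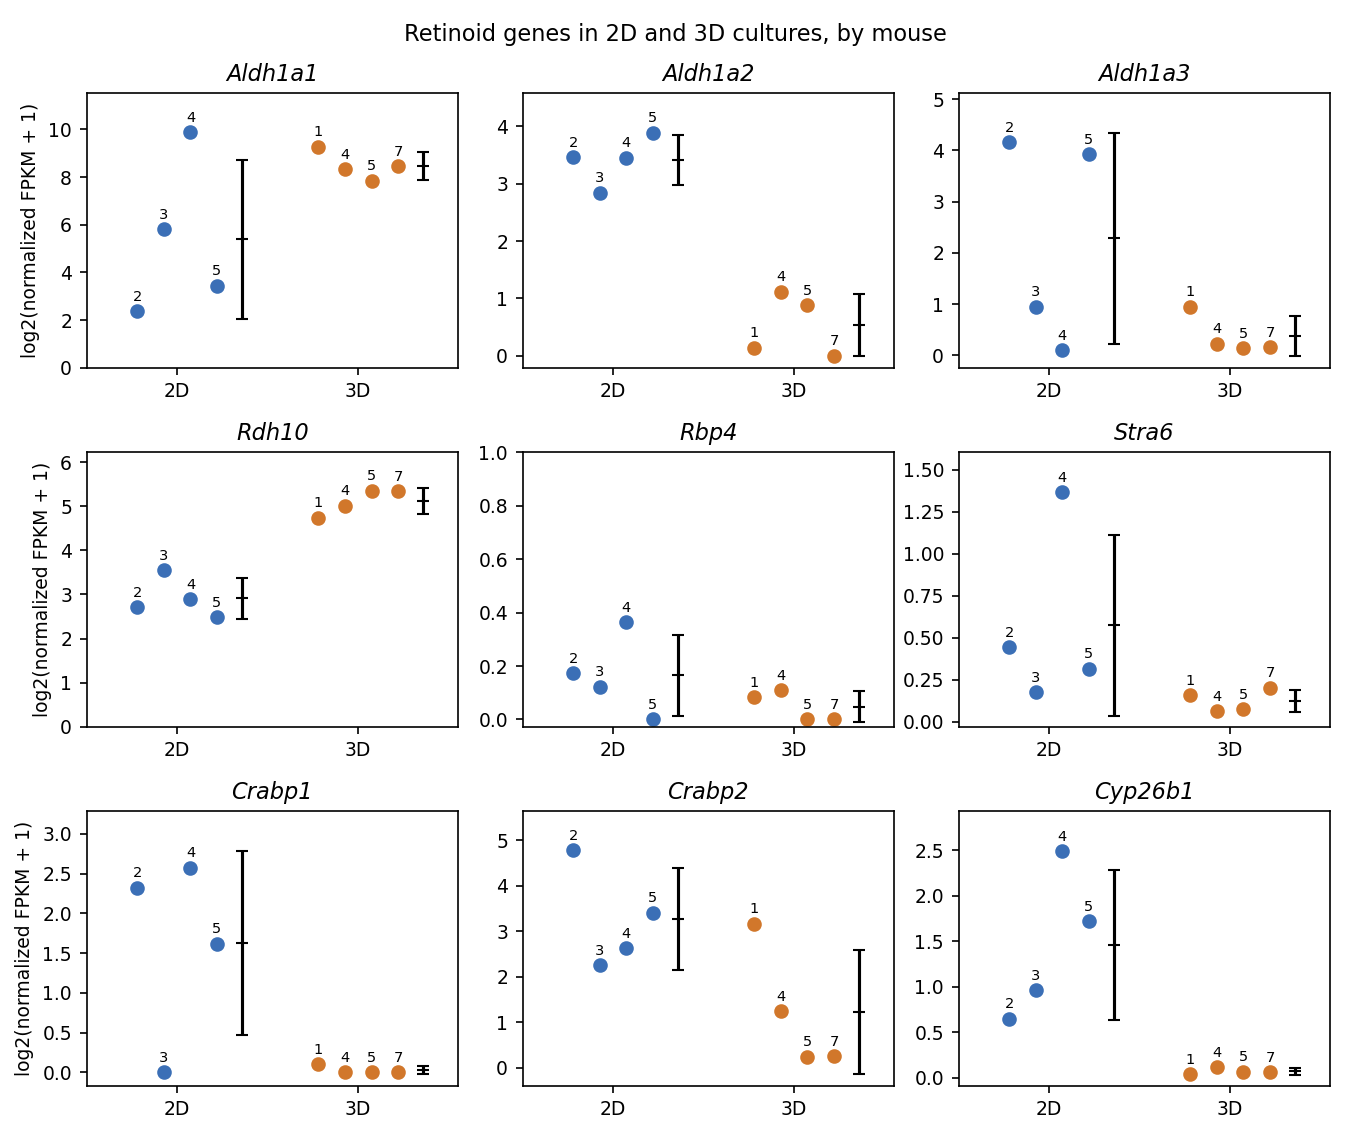
Expression of the 9 retinoid genes in each library as log2(normalized FPKM + 1), with 2D cultures in blue and 3D cultures in orange, the mouse number above each point, and the mean ± SD of the 4 log2 values as a black bar. Rdh10 in 3D lies above every 2D library, Aldh1a2 and Cyp26b1 lie below, and the 2D values of Aldh1a1 run from 4.20 to 945 FPKM. The y axes differ between panels.

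The labels call all 8 libraries mesenchymal stem cells. In the 2D libraries, 11 of 12 stromal markers reached 1 FPKM, with sums between 2098 and 4530 FPKM. In the 3D libraries the same list summed to between 4.78 and 8.71 FPKM, and 2 of the 12 reached 1 FPKM in any library. Pdgfrb, which marks stromal cells, was at 0 there, and Zeb2 was at most 0.0326 FPKM. Twist1, of the same list, held most of each 3D sum. It was between 4.59 and 7.99 FPKM in 3D and between 19.3 and 31.6 in 2D. The 12 epithelial markers summed to between 2542 and 2963 FPKM in 3D and between 32.0 and 694 in 2D, and Epcam was at most 0.0504 FPKM in any 2D library. By limma, 11 of the 12 stromal markers were lower and 11 of the 12 epithelial markers were higher in 3D. The 3D libraries go against the mesenchymal label, and they are called 3D cultures here. Mesothelial markers, of the lining cells of body cavities, separated the 2D libraries: the 9 genes listed summed to 931 and 2286 FPKM for mice 3 and 4 and to 34.9 and 31.6 for mice 2 and 5. Of the sums in mice 2 and 5 most was Krt19, which is also an epithelial marker. The sums in 3D lay between 118 and 294 FPKM, of which Krt19 and Cdh3, both also expressed in other epithelia, held between 85.1% and 97.9%. Gpm6a was at 0 in every 3D library, and Upk3b, a defining mesothelial gene, was at most 0.104 FPKM there. Msln, another gene of the list, was at 0.506, 33.6, 5.62 and 5.98 FPKM in 3D for mice 1, 4, 5 and 7. In 2D it was at 253 and 728 FPKM for mice 3 and 4 and at 0.388 and 0.286 for mice 2 and 5. Of the 9 genes, 4 reached 1 FPKM in any 3D library. The adipocyte markers Adipoq and Lep were at 0 in every library, and the adipocyte list summed to between 20.1 and 129 FPKM in 2D and at most 0.546 in 3D. Macrophage markers summed to between 1.52 and 4.57 FPKM in 2D and between 6.25 and 42.3 in 3D, mainly through Cd68 and Csf1r, with Ptprc and Adgre1 at most 0.476 FPKM in any library. Endothelial markers stayed at or below 6.74 FPKM. Of 12 epididymal markers, 7 were at 0 in every library, and the list reached 6.44 FPKM in 3D for mouse 1, with at most 0.973 in the others.

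The upstream sequences of the genes were searched for letters that retinoic acid receptors are known to bind. RefSeq windows for GRCm38.p6 were found for 6 of the 9 genes, with 11 start sites. The window of Cyp26b1, lower in 3D, was searched but is not shown. The windows of Aldh1a2 and Crabp1, also lower in 3D, and of the Aldh1a1 start that carries the motif described next are shown. Each gives the 250 bases before the start site on the strand of the gene. The windows lie on the plus strand at chr9:71215539-71215788, chr9:54764498-54764747 and chr19:20601718-20601967, and the last one lies inside the annotated extent of Aldh1a1. Capitals mark a half-site of the retinoic acid receptors, searched on both strands as AGGTCA, with the first variant being AGTTCA, the second being GGGTCA and the last being GGTTCA.
Aldh1a2: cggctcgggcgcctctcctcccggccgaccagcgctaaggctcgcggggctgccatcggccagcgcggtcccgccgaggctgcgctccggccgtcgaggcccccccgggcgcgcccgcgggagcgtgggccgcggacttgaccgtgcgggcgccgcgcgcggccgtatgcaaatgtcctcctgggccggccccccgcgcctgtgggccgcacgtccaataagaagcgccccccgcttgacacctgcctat
Crabp1: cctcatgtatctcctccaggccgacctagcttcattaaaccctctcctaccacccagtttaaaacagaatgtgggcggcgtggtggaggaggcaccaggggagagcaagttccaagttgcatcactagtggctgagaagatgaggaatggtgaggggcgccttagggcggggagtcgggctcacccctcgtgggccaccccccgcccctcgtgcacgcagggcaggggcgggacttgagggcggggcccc
Aldh1a1: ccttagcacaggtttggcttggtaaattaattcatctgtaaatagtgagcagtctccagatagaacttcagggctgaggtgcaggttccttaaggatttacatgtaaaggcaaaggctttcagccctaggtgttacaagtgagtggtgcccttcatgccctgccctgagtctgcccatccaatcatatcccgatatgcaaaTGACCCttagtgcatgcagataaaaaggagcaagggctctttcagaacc
The Aldh1a1 window holds 1 half-site, TGACCC on the given strand, 49 bases before the start. Guanine and cytosine made up 77.6% of the Aldh1a2 window, 63.6% of the Crabp1 window and 46.4% of this Aldh1a1 window. A half-site was found in 2 of the 11 windows, the other being in Rbp4, and in 38.6% of the 32851 windows of all genes. No window of the 9 genes held 2 of these half-sites as a direct repeat with 2 or 5 bases between them, which occurred in 0.174% and 0.0883% of all windows. A match is only a match of letters, and its absence says only that these letters are not in the window. No windows were given for Aldh1a3, Crabp2 and Rdh10.

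Rdh10, the oxidoreductase that makes retinaldehyde from retinol, lies on chromosome 1 (ENSMUSG00000025921.7, GRCm38 positions 16105774 to 16133734). Its levels were 5.52, 10.7, 6.39 and 4.62 FPKM in 2D for mice 2, 3, 4 and 5, and 25.7, 31.4, 39.9 and 39.5 FPKM in 3D for mice 1, 4, 5 and 7. The lowest 3D value was above the highest 2D value. The means were 6.82 ± 2.71 and 34.1 ± 6.86 FPKM (SD, n = 4), and the log2 difference was 2.20 (SE 0.25; limma, adjusted p = 3.4e-04). Within mice it was 4.91-fold higher in 3D for mouse 4 and 8.63-fold for mouse 5. Leaving out any 1 library kept the log2 fold change between 2.03 and 2.40 and limma's adjusted p at or below 0.00169.

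Aldh1a2, the retinaldehyde dehydrogenase that supplies most retinoic acid in the early embryo and is also known from mesothelium, lies on chromosome 9 (ENSMUSG00000013584.5, 71215789 to 71296243). It was at 10.0, 6.16, 9.92 and 13.8 FPKM in 2D for mice 2, 3, 4 and 5. In 3D it was at 0.104, 1.17 and 0.847 FPKM for mice 1, 4 and 5 and at 0 for mouse 7. The 3D values of mice 1 and 7 rest on few or no fragments. The groups did not overlap. The means were 9.98 ± 3.12 and 0.529 ± 0.568 FPKM (SD, n = 4), and the log2 difference was -2.87 (SE 0.33; limma, adjusted p = 3.6e-04). It was 8.52-fold lower in 3D for mouse 4 and 16.3-fold lower for mouse 5. Among the 2D libraries, those of mice 3 and 4 had high mesothelial markers. Aldh1a2 was lowest for mouse 3, whereas mice 4 and 2 were nearly level (9.92 and 10.0 FPKM). In deposited FPKM mouse 4 lay above mouse 2 (9.60 against 9.50). Without the 2D libraries of mice 3 and 4 the log2 fold change was -3.14 and limma's adjusted p was 0.00195.

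Aldh1a1, the dehydrogenase known from visceral fat, many epithelia and stem cells, lies on chromosome 19 (ENSMUSG00000053279.8, 20492715 to 20643465). Its levels were 4.20, 55.3, 945 and 9.90 FPKM in 2D for mice 2, 3, 4 and 5, and 616, 321, 229 and 353 FPKM in 3D for mice 1, 4, 5 and 7. The 3D libraries kept within a 2.69-fold range, whereas the 2D libraries spanned 225-fold, with mouse 4 above all 3D libraries and the others below. The log2 fold change was 3.10 with a 95% interval from -0.37 to 6.57 (limma's adjusted p = 0.138), so a difference between the culture types was not resolved. Aldh1a1 was 2.94-fold lower in 3D than in 2D for mouse 4 but 23.2-fold higher for mouse 5. Without the 2D library of mouse 4 the log2 fold change was 4.57 (limma's adjusted p = 0.00443). Without the 2D libraries of mice 3 and 4 it was 5.50 (limma's adjusted p = 5.3e-04). These libraries hold the highest 2D values of Aldh1a1. The omission of both was chosen after the data were seen, so its p does not test a difference. Aldh1a1 was highest where the mesothelial sum was highest among the 2D libraries, and the part of mesothelial cells in its level was not tested. Aldh1a7, a close relative on the same chromosome that may share reads with it, was at 6.47 FPKM in the 2D culture of mouse 3, at 0.440 and 0.399 FPKM in those of mice 2 and 5, and at most 2.69 FPKM elsewhere.

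Aldh1a3, the dehydrogenase of several sensory and glandular epithelia, lies on chromosome 7 (ENSMUSG00000015134.15, 66390890 to 66427517). Its order among the 2D libraries was the reverse of that of Aldh1a1. It was at 16.8 and 14.1 FPKM for mice 2 and 5 but at 0.932 and 0.0692 for mice 3 and 4. In 3D it was at 0.937, 0.168, 0.0998 and 0.120 FPKM for mice 1, 4, 5 and 7. The log2 fold change of -1.91 had a 95% interval from -4.08 to 0.25 (limma's adjusted p = 0.142). Without the 2D library of mouse 4 limma's adjusted p was 0.0346. Without those of mice 3 and 4 the log2 fold change was -3.66 (limma's adjusted p = 3.8e-04). These libraries hold the lowest 2D values of Aldh1a3. The omission of both was chosen after the data were seen, so its p does not test a difference. The log2 difference was -3.78 within mouse 5 and 0.13 within mouse 4. For mouse 4 both values rest on few fragments (0.0692 FPKM in 2D and 0.168 in 3D), so the 0.13 says little about a change.

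The 3 dehydrogenase transcripts made up different mixtures among the libraries. Aldh1a1 held at least 99.6% of their summed FPKM in each 3D library. In 2D it held 13.5% for mouse 2, 26.2% for mouse 5, 88.6% for mouse 3 and 99.0% for mouse 4. For mouse 2 Aldh1a3 held most of the sum (54.2%), and for mouse 5 Aldh1a2 (36.5%) and Aldh1a3 (37.4%) each held more than Aldh1a1. The summed FPKM was between 230 and 618 in 3D (median 338). In 2D it was 31.1, 62.4 and 37.8 for mice 2, 3 and 5 and 955 for mouse 4. FPKM counts transcripts and says nothing of enzyme amount or activity.

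**Figure D2:**
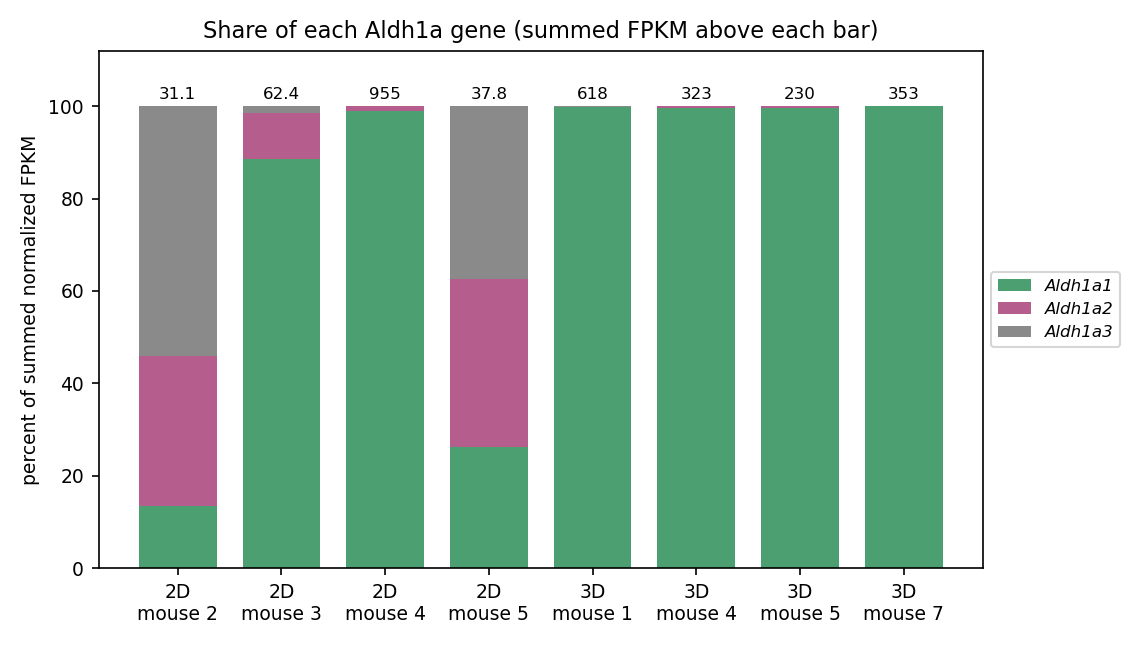
Percent of the summed normalized FPKM of the 3 retinaldehyde dehydrogenase genes that each gene holds in each library, with the sum in FPKM above the bar. Aldh1a1 fills the 3D bars to at least 99.6%, whereas the 2D bars of mice 2 and 5 are shared by all 3 genes.

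**Figure D3:**
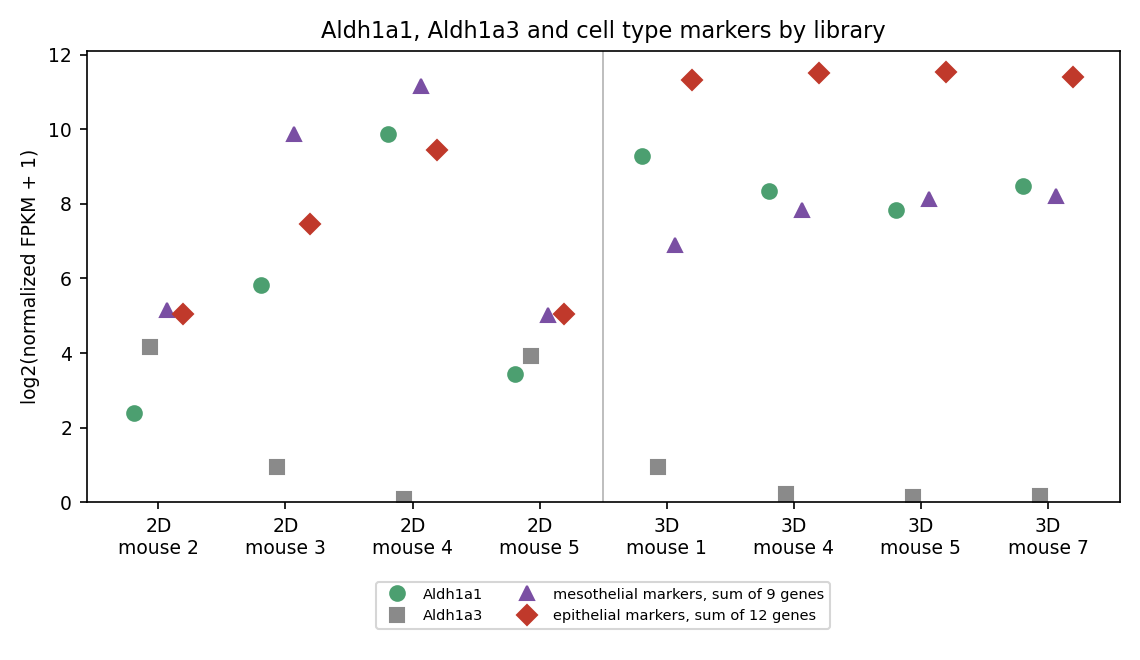
Level of Aldh1a1 and Aldh1a3 and the summed level of mesothelial markers (9 genes) and epithelial markers (12 genes) in each library, as log2(normalized FPKM + 1). Among 2D libraries those of mice 3 and 4 have the high mesothelial sums (931 and 2286 FPKM), the higher Aldh1a1 and the lower Aldh1a3.

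Rbp4, the plasma carrier of retinol, lies on chromosome 19 (ENSMUSG00000024990.13, 38116629 to 38125281). It was at or under the FPKM of 3 fragments in 7 of the 8 libraries, the exception being the 2D library of mouse 4 at 0.288 FPKM. A difference between the culture types was not detectable at this depth (log2 fold change -0.12, limma's adjusted p = 0.244). Stra6, the retinol receptor on chromosome 9 (ENSMUSG00000032327.14, 58063788 to 58153996), was at 0.358, 0.129, 1.57 and 0.244 FPKM in 2D for mice 2, 3, 4 and 5. In the 3D libraries of mice 1, 4, 5 and 7 it was at 0.116, 0.0438, 0.0525 and 0.150 FPKM. The groups overlapped, and the log2 fold change was -0.45 with a 95% interval from -1.01 to 0.11 (limma's adjusted p = 0.177). Without the 2D libraries of mice 3 and 4 it was -0.26, and limma's adjusted p was 0.0193. That omission was chosen after the data were seen and takes out the highest and the lowest 2D value, so its p does not test a difference. Ccdc33 overlaps Stra6 on the opposite strand and reached 4.02 deposited FPKM. Whether counting used the strand is not given in the sources used here, so the low Stra6 values are uncertain.

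Both cytosolic carriers of retinoic acid had lower means in 3D. Crabp1, on chromosome 9 (ENSMUSG00000032291.8, 54764748 to 54773110), was at 4.01, 4.96 and 2.07 FPKM in 2D for mice 2, 4 and 5 and at 0 in that of mouse 3. In 3D it was at 0.0738 FPKM for mouse 1 and at 0 for mice 4, 5 and 7. All 3D libraries, and the 2D library of mouse 3, were at or under 3 fragments. No fold is given for this reason. The log2 difference was -1.60 (SE 0.52; limma, adjusted p = 0.0392). Leaving out the 2D library of mouse 3 gave limma's adjusted p = 5.5e-04, and leaving out any other library gave between 0.0690 and 0.0952.

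Crabp2, which delivers retinoic acid to its nuclear receptors, lies on chromosome 3 (ENSMUSG00000004885.5, 87948666 to 87953376). It was at 26.5, 3.77, 5.17 and 9.63 FPKM in 2D for mice 2, 3, 4 and 5. In 3D it was at 7.95 FPKM for mouse 1, 1.36 for mouse 4, 0.182 for mouse 5 and 0.189 for mouse 7. The 3D library of mouse 1 lay above the 2D libraries of mice 3 and 4, and the other 3D libraries lay below every 2D library. The log2 fold change was -2.04 with a 95% interval from -3.88 to -0.21 and did not pass the adjusted threshold (limma's adjusted p = 0.0741). Without the 3D library of mouse 1 it was -2.70 (limma's adjusted p = 0.0145). Crabp2 was 3.79-fold lower in 3D for mouse 4, and for mice 5 and 7 its 3D values were at or under 3 fragments. With only genes averaging 1 FPKM or more tested, limma's adjusted p was 0.0477.

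Cyp26b1, a retinoic acid hydroxylase, lies on chromosome 6 (ENSMUSG00000063415.12, 84571414 to 84593908). It was at 0.566, 0.948, 4.62 and 2.29 FPKM in 2D for mice 2, 3, 4 and 5, and at 0.0251, 0.0839, 0.0454 and 0.0431 FPKM in 3D for mice 1, 4, 5 and 7. Every 3D library lay below every 2D library, and the 3D libraries of mice 1, 5 and 7 were at or under 3 fragments. The log2 difference was -1.39 (SE 0.37; limma, adjusted p = 0.0186), and limma's adjusted p was at or below 0.0460 whichever library was left out. It was 55.1-fold lower in 3D for mouse 4, a value that rests on few fragments in 3D. Of its relatives, Cyp26a1 was at most 0.545 FPKM (log2 fold change -0.17, limma's adjusted p = 0.307), and Cyp26c1 was at 0 in every library.

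**Figure D4:**
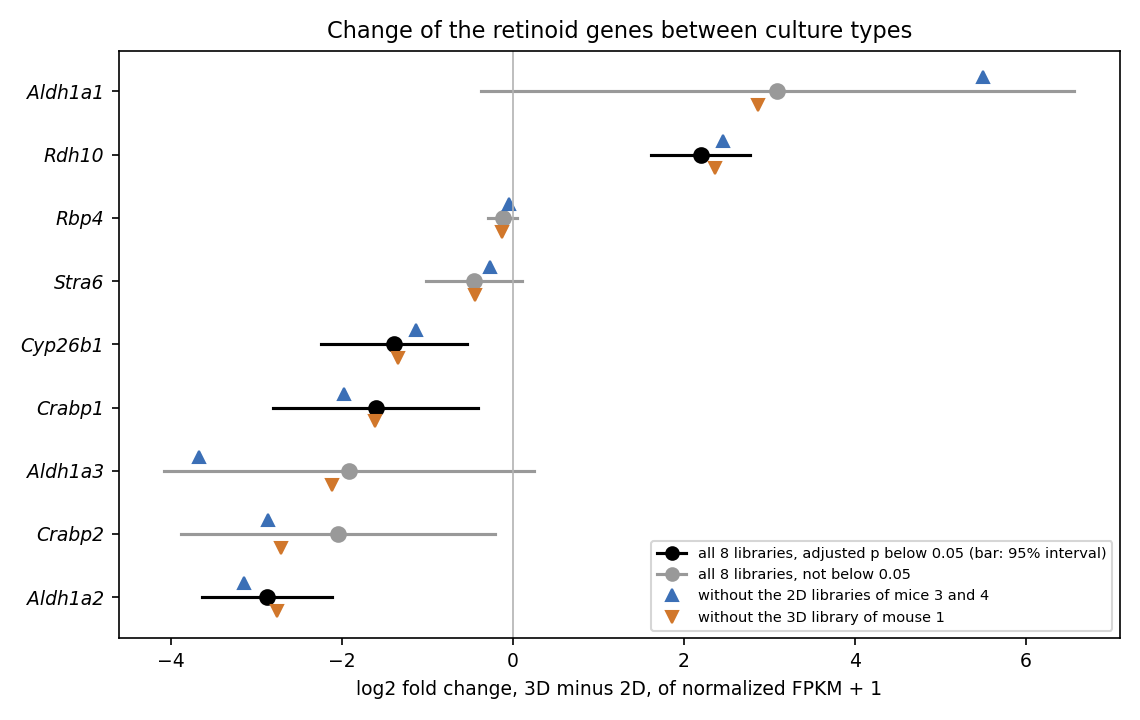
Log2 fold change, 3D minus 2D, of each retinoid gene with all 8 libraries (circle, with its 95% interval; black where limma's adjusted p is below 0.05), without the 2D libraries of mice 3 and 4 (blue triangle) and without the 3D library of mouse 1 (orange triangle). Rdh10, Cyp26b1, Crabp1 and Aldh1a2 are black, and Aldh1a1 and Aldh1a3 move farthest from 0 when the 2D libraries of mice 3 and 4 are left out.

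The other genes of the pathway were taken from lists covering retinol and retinal oxidoreductases, storage and release, carriers, carotenoid cleavage, retinoic acid hydroxylases, receptors and genes induced by retinoic acid. Of 56 genes, 47 were tested, of which 7 were higher and 8 lower in 3D with limma's adjusted p below 0.05. These 15 genes were 31.9% of those tested, against 41.5% over all genes. The single lists below are small, and their counts are to be read against 21.2% higher and 20.3% lower over all genes. Over the 47 genes the median log2 difference was -0.02. Among 14 oxidoreductases tested, 2 were higher and 1 lower, with a median of 0.05. Rdh12, which reduces retinaldehyde, was between 0.0839 and 0.186 FPKM across the 2D cultures. In 3D it averaged 2.63 ± 0.842 FPKM (SD, n = 4), which was a log2 difference of 1.62 (limma's adjusted p = 1.9e-04). Adh5, a broadly expressed alcohol dehydrogenase, was at 50.3 ± 12.9 FPKM in 2D and 83.6 ± 12.3 in 3D (SD, n = 4), a log2 difference of 0.75 (limma's adjusted p = 0.0166). On deposited FPKM, without quantile normalization, it was 0.31 and limma's adjusted p was 0.185. Dhrs9, a retinol dehydrogenase of epidermis and macrophages, fell from 3.49 ± 2.09 FPKM (SD, n = 4) to between 0 and 0.540 (log2 fold change -1.85, limma's adjusted p = 0.0056).

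Among 6 genes of ester storage and release, 2 were higher and 1 lower. Ces1d, an esterase that can release retinol, was listed at 0 in every 2D library. It was at 11.9, 4.71 and 1.59 FPKM for mice 1, 4 and 5 in 3D and under 1 FPKM for mouse 7 (limma's adjusted p = 0.0185). It has close relatives in the same gene cluster, and without the 2D libraries of mice 3 and 4 its adjusted p was 0.0848 from limma. Pnpla2, the lipase that opens triglyceride breakdown, rose from 11.6 ± 1.48 to 17.2 ± 3.62 FPKM (SD, n = 4, limma's adjusted p = 0.0386). It passed in 1 of the 8 fits that left out a library, and that was the one without the 3D library of mouse 1. Lpl, which frees retinyl esters from lipoproteins, fell from 18.0 ± 15.3 to 0.0688 ± 0.0231 FPKM (SD, n = 4), with a log2 difference of -3.81 (limma's adjusted p = 8.6e-04). Lrat, which makes retinyl esters, was at 0 in all 2D libraries and at 0.727 FPKM or less in 3D.

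Of 4 carriers tested, 0 were higher and 1 was lower in 3D by limma's adjusted p, and 0 were higher also at an unadjusted p below 0.05. Fabp5, which can carry retinoic acid as well as fatty acids, fell from 70.7 ± 43.6 to 13.1 ± 11.5 FPKM (SD, n = 4, limma's adjusted p = 0.0273). Its adjusted p passed in 4 of the 8 fits that left out a library. Of the 4 genes of carotenoid uptake and cleavage tested, 0 passed by limma's adjusted p or at an unadjusted p below 0.05.

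Of 5 retinoid receptors tested, 1 was higher and 1 lower. Rxra rose from 8.71 ± 0.866 to 14.2 ± 2.94 FPKM (SD, n = 4), with a log2 difference of 0.63 (limma's adjusted p = 0.0127). Rarg fell from 23.4 ± 3.03 to 14.9 ± 3.42 FPKM (SD, n = 4), with a log2 difference of -0.64 (limma's adjusted p = 0.0247), and passed in 4 of the 8 fits that left out a library. Without the 2D libraries of mice 3 and 4, limma's adjusted p was 0.0517 for Rxra and 0.142 for Rarg. Rarb, itself induced by retinoic acid, was at 5.68 FPKM in 3D for mouse 1, against 0.702 to 0.812 for mice 4, 5 and 7 and 3.86 to 9.72 in 2D (limma's adjusted p = 0.0506, or 0.00206 without that library). With a pseudocount of 0.1 limma's adjusted p was 0.0360 for Rarb. Rara, between 9.07 and 20.1 FPKM, and Rxrb, between 13.5 and 20.1, did not pass (limma's adjusted p of 0.123 and 0.192), and Rxrg was at 0 in every library.

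Of 13 genes known to respond to retinoic acid, 2 were higher and 4 lower in 3D, with a median log2 fold change of -0.50. Over all genes tested, 41.5% passed in either direction, with a median of 0.0012. So the count of 13 genes was near the share over all genes, and the list as a whole was not tested. Meis1 and Meis2, homeobox factors of limb and trunk patterning, fell from 12.4 ± 2.93 to 1.72 ± 0.414 and from 9.32 ± 4.63 to 0.643 ± 0.465 FPKM (SD, n = 4). Their log2 fold changes were -2.29 and -2.58 (limma's adjusted p of 8.1e-05 and 9.5e-04). Nrip1, a corepressor of nuclear receptors, rose from 8.98 ± 0.680 to 27.3 ± 4.74 FPKM (SD, n = 4, limma's adjusted p = 8.9e-05). Rarres2, which encodes the adipokine chemerin, was between 0.575 and 8.61 FPKM in 2D and at 0 in 3 of the 4 3D libraries (limma's adjusted p = 0.0466, in a range of 0.00511 to 0.0991 when a library was left out). On deposited FPKM limma's adjusted p was 0.0735 for Rarres2. With the mouse as a fixed block, limma called 0 of the 47 pathway genes, with an unadjusted p below 0.05 in 4 higher and 6 lower. Without the 3D library of mouse 5 the number lower in 3D was 5 in place of 8.

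**Figure D5:**
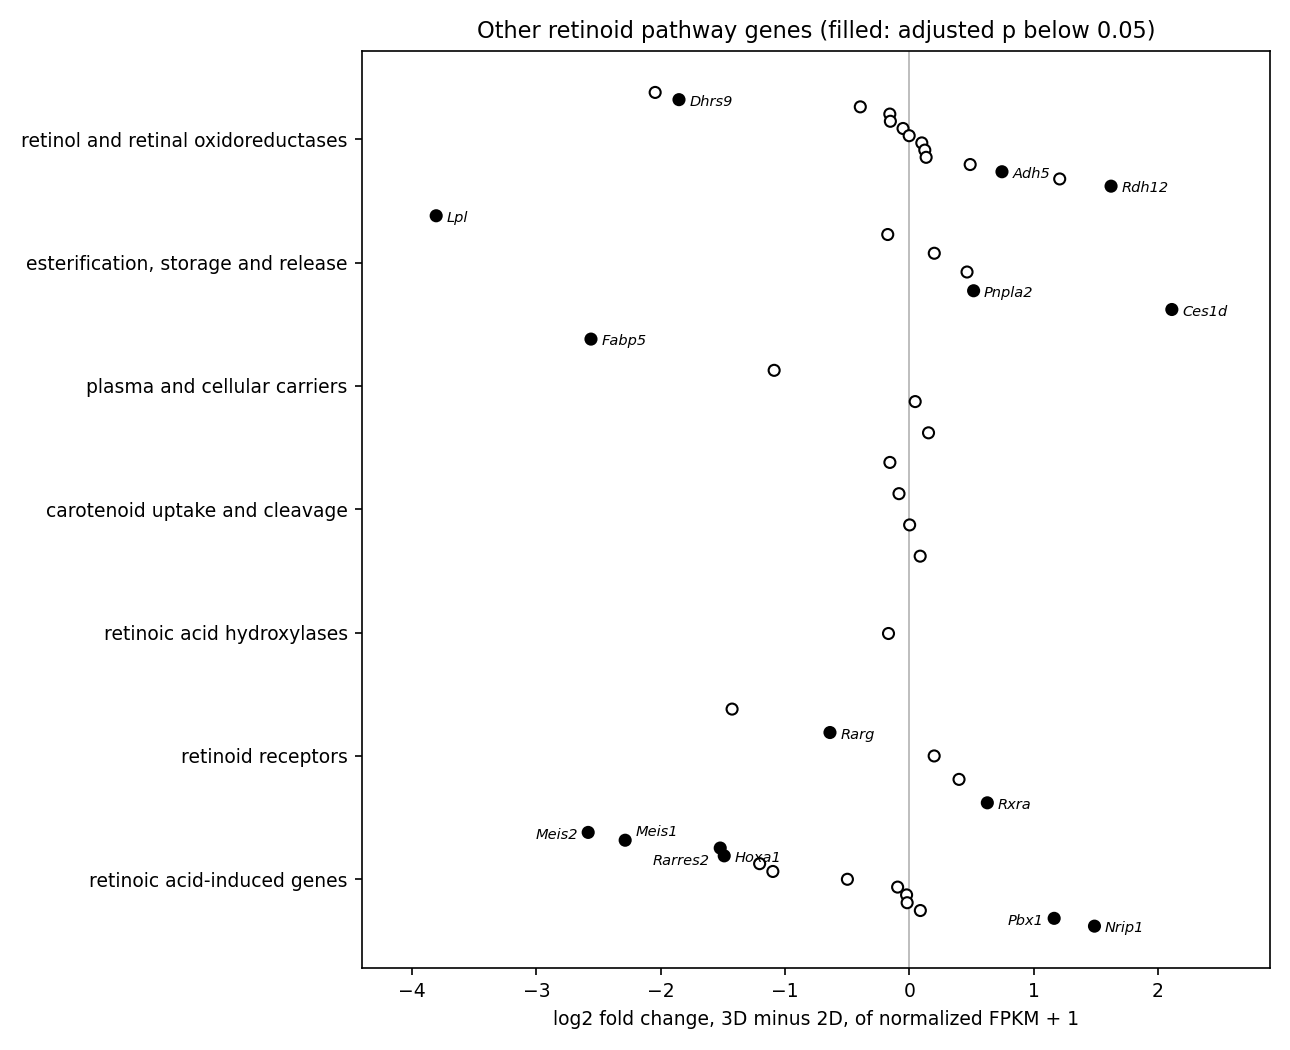
Log2 fold change, 3D minus 2D, of the 47 other pathway genes tested, 1 point per gene and grouped by role on the y axis. Filled points have limma's adjusted p below 0.05, and they lie on both sides of 0, with Lpl lowest at -3.81 and Ces1d highest at 2.11.

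The genes whose levels over the 8 libraries were most like Rdh10 were Llgl2, Agrn and Cacfd1, with Pearson's r of 0.996, 0.993 and 0.993 on the log2 scale. Those most like Aldh1a2 were Layn, Tpm4 and Trnt1, with r of 0.997, 0.995 and 0.994. Among the 12577 genes averaging 1 FPKM or more, 689 reached an r of 0.95 with Rdh10 and 660 did so with Aldh1a2. All these correlations share the same 8 libraries, which fall into 2 separate groups, and are given as a description.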

How the data were processed

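RNA of 4 2D and 4 3D cultures was sequenced as directional libraries after removal of ribosomal RNA. The authors trimmed the paired-end reads, mapped them with TopHat to mm10 (per the labels and the submitters' processing notes) and used Cufflinks to give each gene an FPKM, which are the deposited values. The annotation is not given in the sources used here, and read counts were not used. Library upper quartiles ranged from 10.73 to 11.37 FPKM, so the quantile normalization of the study is not in these values.

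Here, 5484 genes at 0 in every library were left out, and 18862 were quantile normalized and fitted as log2(FPKM + 1) with limma 3.58.1 (R 4.3.3), with an intensity trend, empirical Bayes moderation, no covariates and Benjamini-Hochberg adjustment. The script was tested on simulated data. Depth, read from the spacing of low FPKM in long single-transcript genes, was 14.5 to 17.3 M fragments per library. As floor served the FPKM that 3 fragments give at the length of its longest coding transcript in GENCODE M21, which covers counting error only. Positions are those of GENCODE M21 (GRCm38, the same assembly as mm10).

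Mouse numbers pair mice 4 and 5, which are the same animals. Over 12577 genes, the correlation between 2D and 3D in the departure from the group mean was -0.05 (mouse 4) and -0.11 (mouse 5). The replicates are cultures of separate mice within each group. The p-values set the difference of the groups against the spread between these cultures, which limma moderates over all genes. The main fit treats the 2D and 3D cultures of mice 4 and 5 as independent. The 9 genes, the other gene lists and the tests were chosen with earlier results of these data known. Pathway genes are named where limma's adjusted p was below 0.05, at most 4 per list, with all receptors added; Cyp26a1, Cyp26c1 and Lrat, and the genes named among the closing observations, were chosen after their values were seen. Alternatives were deposited values, no trend, genes averaging 1 FPKM or more, 0.1 as pseudocount, a fixed or random block for the mouse, only mice 4 and 5, 136 genes under 300 nt left out, and each library left out. Leaving out the 2D libraries of mice 3 and 4, and the block on mice 4 and 5 alone, were chosen after seeing the data.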

Additional observations from a re-analysis of the deposited data

Results flagged for a closer look

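In 25 genes named in the text, 50 groups of 4 libraries were examined for a library far from the others by Dixon's ratio on the log2 scale. Such a library was found in 5 groups. The rule flags about 1 in 20 groups of independent, normally spread values. For Crabp1 and Rarres2 the other libraries were tied at 0, where any value gives a ratio of 1. The groups also share the same 8 libraries, so the count cannot be set against that rate. The 3D library of mouse 1 was the highest in 4 of the 5 groups. Aldh1a3 was at 0.937 normalized FPKM there, against 0.0998 to 0.168 in 3D for mice 4, 5 and 7. Rarb was at 5.68 against 0.702 to 0.812, and Dhrs9 at 0.540 against 0 to 0.0277. Crabp1 was at 0.0738 against 0, a value at or under 3 fragments. Rarres2 was at 0.259 in the 3D library of mouse 7 and at 0 in the other 3D libraries.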

How the results depend on the processing

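The number of all genes higher and lower in 3D was 4000 and 3823. Without 1 library these numbers ran from 3393 to 4051 and from 3204 to 3835. With only mice 4 and 5 they were 1788 and 1432, and 893 and 786 when the mouse was added as a replicate block. With the mouse as a random replicate block on all libraries, the numbers were 3948 and 3779. With the mouse as a fixed replicate block on all libraries, 0 and 0 genes passed limma's adjusted threshold, and 2833 and 2383 had an unadjusted p below 0.05. Of the 9 retinoid genes 1 was higher and 3 lower, and the random block left 1 and 3. The fixed block left 0 and 0, with 1 and 3 at an unadjusted p below 0.05. Without 1 library the 9 genes gave 1 to 2 higher and 2 to 3 lower. The second higher gene was Aldh1a1, without the 2D library of mouse 4. Without the 2D libraries of mice 3 and 4, an omission chosen after the data were seen, 2 were higher and 5 lower. With the fixed block on mice 4 and 5 alone 1 was lower. Of the other pathway genes 7 were higher and 8 lower, or 6 to 7 and 5 to 11 without 1 library, with the low of 5 without the 3D library of mouse 5. The random block left 7 and 8, and the fixed block left 0 and 0, with 4 and 6 at an unadjusted p below 0.05. Only mice 4 and 5 gave 2 and 3, and with the fixed block 1 and 2. The log2 fold changes of the 9 genes kept their side of the threshold in 139 comparisons with an alternative, lost it in 13 and gained it in 7, and kept their sign in each of these. For the named pathway genes these numbers were 222, 61 and 5. Depth limits Rbp4, and Stra6 outside the 2D library of mouse 4. It also limits the 3D values of Crabp1, Crabp2 (mice 5 and 7) and Cyp26b1, which rest on few fragments. The same holds for Aldh1a2 in 3D for mice 1 and 7, and for Aldh1a3 in 3D for mice 4, 5 and 7 and in 2D for mouse 4. Cyp26b1, Rbp4 and Stra6 had deposited means below 1 FPKM and were not tested under that filter.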

Other observations

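Among pathway genes that did not pass, some stood apart in the 3D library of mouse 1. Adh7, an alcohol dehydrogenase of surface epithelia that can oxidize retinol, was at 54.2 normalized FPKM there, against 0 to 0.164 in 3D for mice 4, 5 and 7 and 0.421 to 3.56 in 2D. Lrat was at 0.727 there and at most 0.0109 elsewhere, and Rbp2, a retinol carrier known from intestine, at 0.935 against 0.143 or less elsewhere. Dhrs3, which reduces retinaldehyde back to retinol, was at 61.5 and 33.5 FPKM in 3D for mice 1 and 4 and at 3.88 and 5.62 in those of mice 5 and 7. Fabp5 followed the same split, at 26.7 and 18.6 FPKM for mice 1 and 4 and 3.24 and 3.92 for mice 5 and 7. Among 2D libraries, Fabp5 stood at 107 and 110 FPKM for mice 2 and 5 and at 36.3 and 29.7 for mice 3 and 4, and Tgm2, a transglutaminase induced by retinoic acid, at 133 and 159 against 48.6 and 34.2. The description label of the 3D library of mouse 1 ends in 13, where those of the other 3D libraries end in 3D, and what the difference stands for is not given in the sources used here.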
